A study of Mus musculus with 15 samples.

Results

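Chromosomes 6 and 8 were followed through lists of regions taken to hold less of the histone variant H2A.X than a control. The names of the lists call them decreased domains, and the direction rests on those names. The members were all domains on these 2 chromosomes in 10 lists, 2047 of 23031 domains or 8.89%, with 1102 on chromosome 6 and 945 on chromosome 8. The pair was chosen because both lost nearly all domains when cells were moved from 2i/LIF to Serum/LIF, so that contrast is given as a description, with no test. The 2i/LIF lists took part in the choice, so their comparison with other lists is a description too. Between the first and last base that any list covers, chromosome 6 spans 146 Mb and chromosome 8 spans 128 Mb (mm9), together 11.4% of the autosomal span.

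H2A.X was mapped by native ChIP-seq, in which nucleosomes released by MNase from uncrosslinked chromatin are precipitated, in embryonic stem (ES) cell lines of 129S6 X C57B6 mice. The 2i/LIF group had 3 lists, of lines 34, 35 and 37, and its serum-free medium was supplemented with N2, B27, LIF, PD0325901 at 1 µM and CHIR99021 at 3 µM. Lines 30, 31 and 32 had 1 list each from Serum/LIF under the title XS, and lines 35 and 37 had 1 each from Serum/LIF under the title S. Serum/LIF held FBS and LIF over irradiated feeder cells. Lines 34 and 37 also had 1 list each from cells that were in 2i/LIF first and in Serum/LIF later. What XS and S stand for, the sex of each line, how long the cells stayed in each medium and the control of each list are not stated in what was used here, nor is the sequencing depth. All lists may share a control. Each list is from 1 sample, and whether samples of a group are separate cultures is not stated, so the spread between lists may be technical in part.

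H2A.X replaces ordinary H2A in part of the nucleosomes and is best known for its phosphorylation next to DNA double-strand breaks, where it helps gather repair proteins. 2i medium blocks Mek with PD0325901 and Gsk3 with CHIR99021, and so holds ES cells close to the state of the early epiblast. Chromosome 6 of the mouse carries the pluripotency gene Nanog, its neighbours Dppa3 and Gdf3, and the HoxA cluster of body-patterning genes. Chromosome 8 carries Klf2, a transcription factor of the naive state, and Cdh1, which encodes E-cadherin. ES cells in culture are known to gain whole chromosomes, most often chromosome 8, and the lists hold no measure of chromosome copy number. The annotation at hand is of another build than the lists, so no gene was placed in a domain and no sequence is shown.

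Before the move, chromosomes 6 and 8 were covered by domains much like the other autosomes in 2 of the 3 2i/LIF lines and less than most of them in the remaining one. In 2i/LIF line 34, 147 domains covered 31.5% of chromosome 6 and 116 covered 35.6% of chromosome 8, compared with 34.7% of the other 17 autosomes pooled. In 2i/LIF line 35, the widest list, 215 and 174 domains covered 77.1% and 75.2%, compared with 78.5% elsewhere. In 2i/LIF line 37, 161 and 128 domains covered 27.4% and 30.8%, compared with 46.8% elsewhere. By coverage, counted from the highest of 19 autosomes, chromosome 6 ranked 13, 14 and 19 in lines 34, 35 and 37, and chromosome 8 ranked 9, 17 and 17. Line 37 was therefore the 2i/LIF list in which both chromosomes already stood low.

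After the move to Serum/LIF almost nothing of this was left. In line 34 there were 27 domains over 4.37% of chromosome 6 and 9 domains over 1.16% of chromosome 8. In line 37 there was 1 domain over 0.0355% of chromosome 6 and there were 5 over 0.280% of chromosome 8. The other 17 autosomes together were covered over 47.5% in line 34 and 46.8% in line 37, and the lowest of them, chromosome 3, over 35.7% and 36.0%. Relative to the other 17 autosomes of the same list, coverage of chromosomes 6 and 8 was 0.963, 0.971 and 0.619 in 2i/LIF lines 34, 35 and 37, and 0.0604 and 0.00320 after the move in lines 34 and 37. The means were 0.851 ± 0.201 (SD, n = 3) and 0.0318 ± 0.0404 (SD, n = 2). The groups did not overlap, but the chromosomes were chosen by this contrast, so that carries no support.

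**Figure D1:**
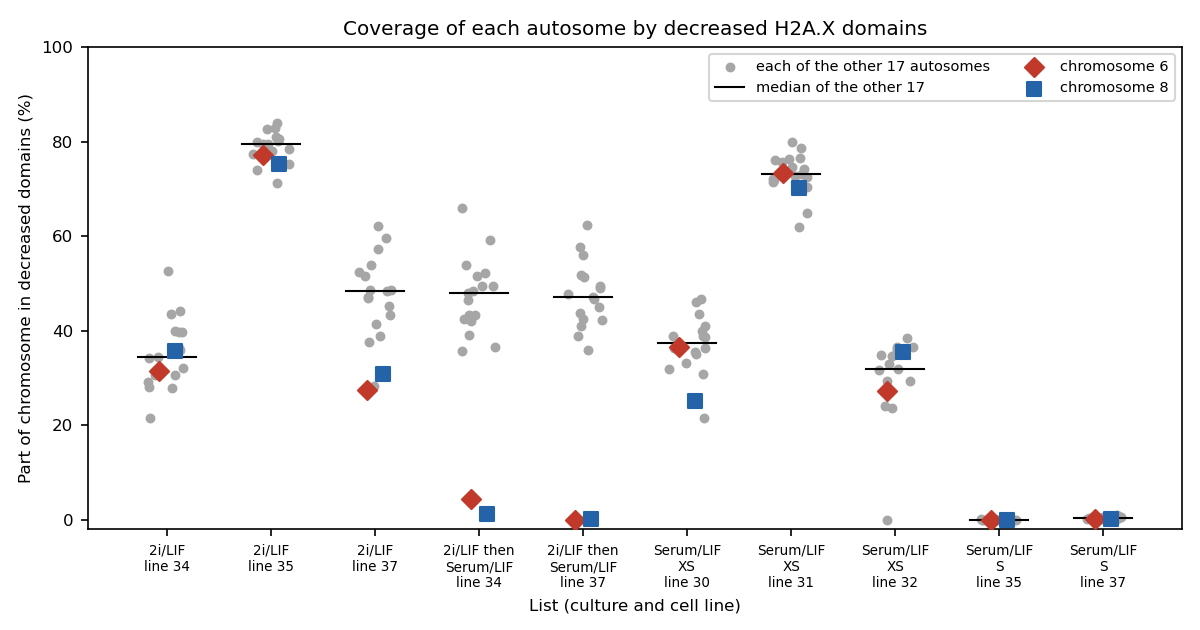
Percent of each autosome inside decreased domains (vertical axis) in each of the 10 lists (horizontal axis), with chromosome 6 as diamonds, chromosome 8 as squares, each of the other 17 autosomes as a grey point and their median as a line. Both chromosomes lie within the grey points in 2i/LIF lines 34 and 35 and in the XS lists, at or near the lower end in 2i/LIF line 37, and far below all grey points after the move.

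The loss ran along the whole of both chromosomes. Of 26 windows of 10 Mb in line 37, 14 of 14 on chromosome 6 and 12 of 12 on chromosome 8 were less covered after the move than in 2i/LIF. In line 34 the counts were 13 of 14 and 12 of 12. On the other 17 autosomes, 7 of 204 windows were less covered after the move in line 34 and 90 of 204 in line 37. The median change per window was -28.4 percentage points on chromosome 6 and -32.2 on chromosome 8 in line 34, and -28.2 and -27.0 in line 37. Elsewhere the median change was 12.9 points in line 34 and 1.24 in line 37.

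Line 34 kept 11.6% of its 2i/LIF length on chromosome 6 and 3.25% on chromosome 8, and line 37 kept 0.130% and 0.911%. The mean over lines for both chromosomes together was 3.97% ± 4.89 (SD, n = 2). On the other 17 autosomes line 34 kept 90.6% and line 37 kept 73.2%. The lowest single autosome among these was chromosome 19 in line 34, at 66.2%, and chromosome 10 in line 37, at 65.8%, so neither chromosome 6 nor 8 was near the range of the rest. Counted by domains, 26 of 147 on chromosome 6 and 9 of 116 on chromosome 8 were touched by a domain after the move in line 34, 13.3% of both together, where 83.0% of all 2600 autosomal domains were touched. In line 37 it was 1 of 161 and 3 of 128, or 1.38%, where 74.0% of all 3147 were touched.

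**Figure D2:**
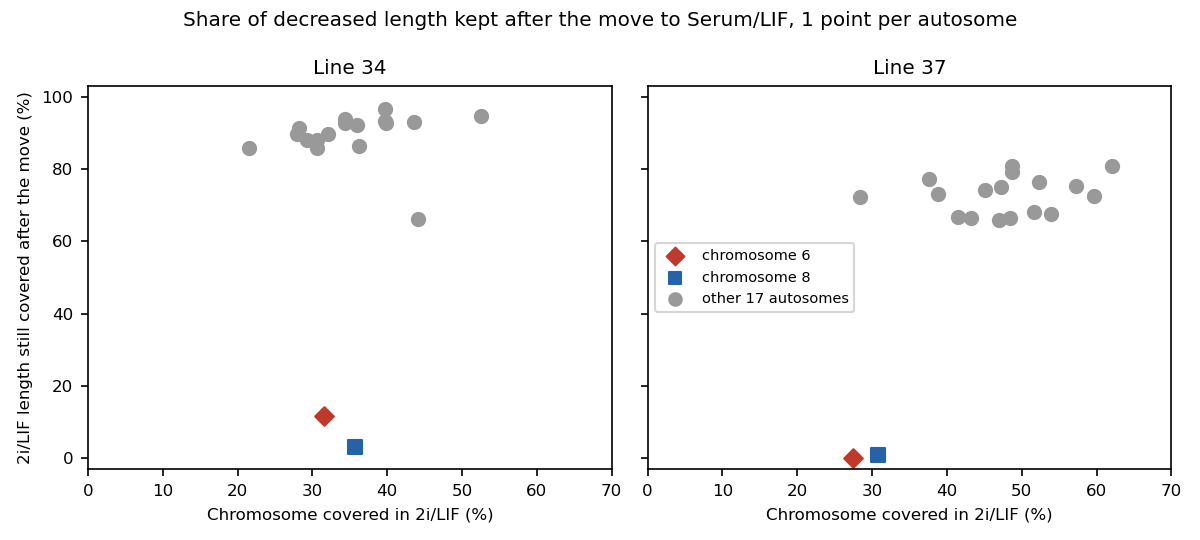
Percent of the 2i/LIF length of each autosome still inside a domain after the move (vertical axis) against the percent of that autosome covered in 2i/LIF (horizontal axis), 1 panel per line and 1 point per autosome. Chromosomes 6 and 8 lie at 11.6% and 3.25% in line 34 and at 0.130% and 0.911% in line 37, while the others lie from 66.2% to 96.5% in line 34 and from 65.8% to 80.8% in line 37.

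Long 2i/LIF domains were touched more often than short ones, but even those over 500 kb were mostly lost. In line 34, 3 of 49 domains under 100 kb, 18 of 160 from 100 to 500 kb and 14 of 54 over 500 kb on chromosomes 6 and 8 were touched. On the other 17 autosomes all 399 domains over 500 kb of that list were touched. In line 37 the counts on chromosomes 6 and 8 were 0 of 62, 2 of 188 and 2 of 39, against 550 of 569 over 500 kb elsewhere. By length, line 34 kept 11.2%, 10.8% and 12.5% of the 3 classes on chromosome 6 and 0%, 2.07% and 4.10% on chromosome 8. Line 37 kept 0%, 0.213% and 0.986% on both together. The 35 touched domains of line 34 had a median length of 390 kb and a median score of 0.921 per bin, and the 228 untouched ones 203 kb and 0.862. This was not particular to these chromosomes. On the other 17 autosomes of line 34, touched domains had medians of 204 kb and 0.877, and untouched ones 86.45 kb and 0.787. Touching needs only 1 shared bin, which favours long domains. The score is the authors' own value per domain, divided here by the number of its 1.3 kb bins, and is used only within a list.

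Bins that every 2i/LIF list covered made up 34.4 Mb or 23.5% of chromosome 6 and 35.2 Mb or 27.4% of chromosome 8. Both shares were below the 31.4% of the other 17 autosomes and the 30.7% of all autosomal bins. Of these shared bins, 30.2 Mb on chromosome 6 and 33.8 Mb on chromosome 8 were in neither list after the move, which is 20.6% and 26.3% of the chromosomes compared with 4.00% of all autosomal bins and 1.52% of the other 17 autosomes. When the 3 XS lists also had to cover a bin, 4.86 Mb of chromosome 6 and 10.2 Mb of chromosome 8 were in neither list after the move. That was 3.32% and 7.96% of the chromosomes compared with 0.652% of all autosomal bins. Both chromosomes held 96.0% of the 15.7 Mb of this kind. The opposite kind, bins that both moved lines covered and no 2i/LIF list did, made up 4.43% of all autosomal bins, or 107 Mb, and none of it lay on chromosome 6 or 8. Net coverage of the other 17 autosomes rose only in line 34, from 34.7% to 47.5%, and was 46.8% before and after in line 37, where 7 of the 17 were more covered after the move and 10 less. All of these shares come from the contrast by which the chromosomes were chosen.

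The stretches that all 2i/LIF and XS lists covered and both moved lines lacked were longer on chromosome 8. The 3 longest on chromosome 8 ran from 14827801 to 15243800 (416 kb, mm9), from 120786901 to 121180800 (394 kb) and from 94876601 to 95254900 (378 kb). Those on chromosome 6 ran from 91594101 to 91769600 (176 kb), from 84305001 to 84466200 (161 kb) and from 88940801 to 89100700 (160 kb). The last of these started at the base after a domain that line 34 kept, so a domain ended there after the move while the domains of all 6 2i/LIF and XS lists went on.

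**Figure D3:**
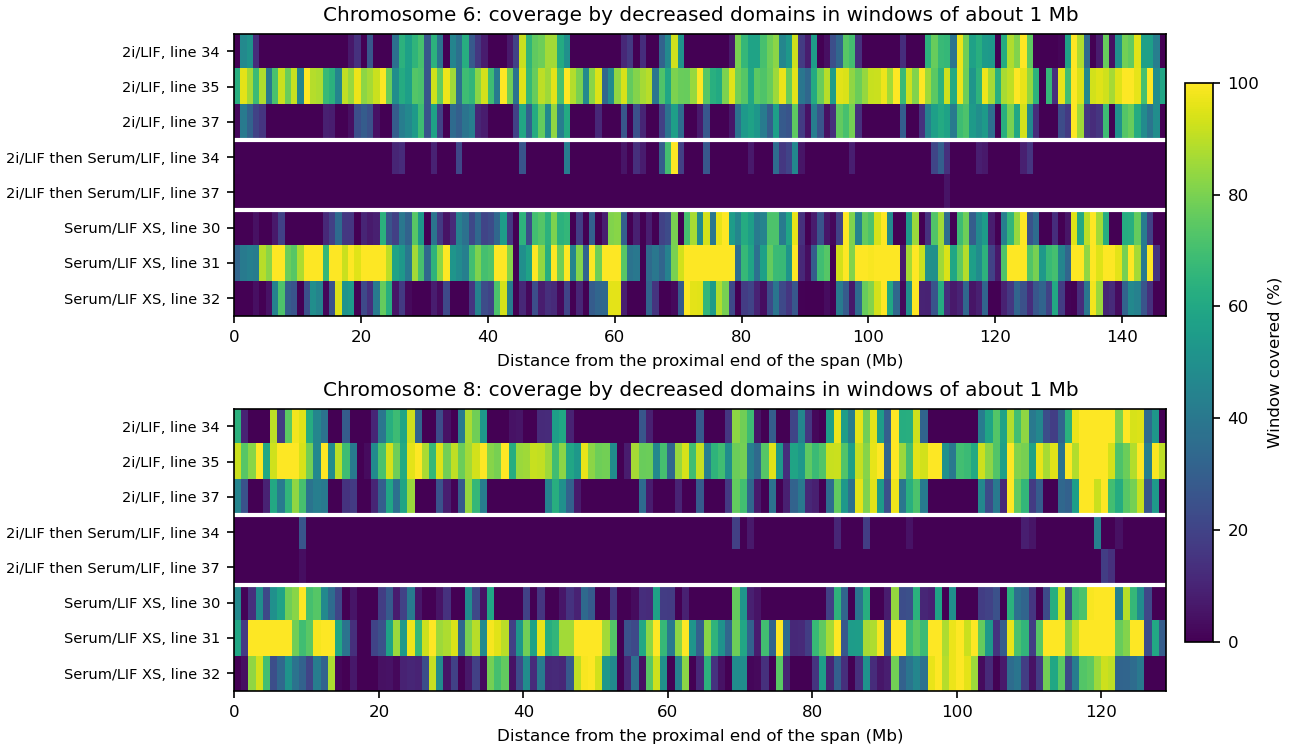
Percent of each window of about 1 Mb (769 bins) covered by domains, as colour, along chromosomes 6 and 8 (horizontal axis, distance in Mb from the proximal end of the span) in the 8 wide lists (rows). The 2 rows of cells moved to Serum/LIF are dark nearly throughout, and the rows of 2i/LIF lines 34 and 37 share the positions of their bright blocks.

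What remained on chromosome 6 in line 34 was spread along the chromosome rather than in 1 block, but its longest and next longest domains were neighbours. Apart from 10.4 kb at the very start of the span, the first of the 27 domains began at 28789801 and the last ended at 128117600. The first 25.8 Mb after that short domain, to 28789800, held none and were the longest free stretch of chromosome 6 in this list. Coverage in successive sections of 25% of the chromosome, from the proximal end, was 1.50%, 8.58%, 4.53% and 2.86%. In 2i/LIF the same line had 19.4%, 26.1%, 28.7% and 52.0%, so the section with most coverage before the move, the distal one, was not that with most after it. The longest remaining domains ran from 71650801 to 73021000 (1.37 Mb), from 70684901 to 71351800 (667 kb) and from 113757801 to 114268700 (511 kb). The longest was covered over 80.6%, 71.5% and 47.2% by 2i/LIF lines 34, 35 and 37, and over 65.3%, 64.5% and 1.99% by XS lines 30, 31 and 32. The third was covered completely by all 2i/LIF lists and XS lines 30 and 31, and over 84.0% by XS line 32.

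On chromosome 8 line 34 kept 9 domains, the longest from 122664101 to 123103500 (439 kb), from 12759501 to 13022100 (263 kb) and from 72898801 to 73089900 (191 kb). The 59.9 Mb from 13022101 to 72898800 held none, and the longest free stretch on any of the other 17 autosomes of that list was 13.1 Mb, on chromosome 16. All 9 lay wholly inside domains of 2i/LIF line 34, and 7 of 9 wholly inside domains of 2i/LIF line 35. Of the 36 domains of both chromosomes together, 22 lay wholly inside the 2i/LIF list of the same line, 32 touched it and 86.7% of their length was covered by it. On the other 17 autosomes the 2i/LIF list of line 34 covered 66.3% of the length after the move.

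In line 37 all 6 remaining domains can be given. On chromosome 6 there was 1 domain, from 115893701 to 115945700 (52.0 kb). On chromosome 8 the domains ran from 12928501 to 12967500 (39.0 kb), from 123533801 to 123650800 (117 kb), from 123810701 to 123877000 (66.3 kb), from 124247501 to 124320300 (72.8 kb) and from 124783101 to 124848100 (65.0 kb). Thus 4 of the 5 on chromosome 8 stood close together toward its distal end. Each of the 6 lay wholly inside domains of all 3 2i/LIF lists and of XS lines 30 and 31, a set of 5 lists named after the values were seen. Of all 2937 autosomal domains of this list 1.94% did. Its domains on the other 17 autosomes, with a median length of 177 kb against 65.7 kb here, lay wholly inside 2i/LIF lines 34, 35 and 37 in 14.1%, 45.1% and 25.1% of cases, and inside XS lines 30 and 31 in 7.78% and 39.0%. The lengths differ, and their part in these shares was not tested. XS line 32 covered 4 of the 6 wholly and 98.7% of their length. On the other 17 autosomes, XS line 32 wholly covered 2.93% of the domains of line 37 after the move, and 23.9% of their length. No domain was gained on chromosomes 6 and 8: 100% of their length after the move lay in the 2i/LIF list of the line. Elsewhere 73.2% did.

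Both moved lines had only 2 places in common on these chromosomes. The single domain of line 37 on chromosome 6 and its proximal domain on chromosome 8 each lay wholly inside a domain of line 34. Together they came to 91.0 kb, which was 22.1% of the length left in line 37 and 1.15% of that left in line 34. On the other 17 autosomes the shared length was 90.3% of the list of line 37 and 89.1% of that of line 34. Bins in both lists after the move made up 0.0355% of chromosome 6 and 0.0304% of chromosome 8, compared with 37.5% of all autosomal bins. The other 4 domains of line 37, all on distal chromosome 8, were not touched by line 34.

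**Figure D4:**
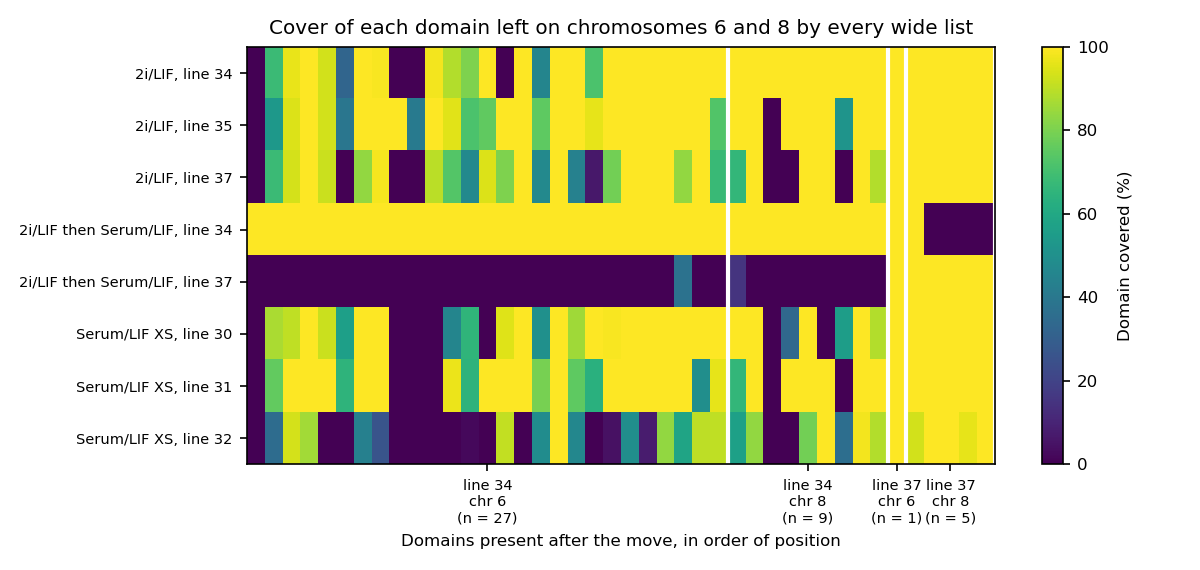
Percent of each domain left after the move (columns, in order of position, grouped by line and chromosome, n = 27, 9, 1 and 5) that is covered by each of the 8 wide lists (rows), as colour. A list's own domains are at 100%, the 6 domains of line 37 are fully covered by the 2i/LIF lists and XS lines 30 and 31, and only 2 of them are covered by line 34.

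On chromosomes 6 and 8, most bins that all 2i/LIF and XS lists cover had no domain after the move. Of 17.9 Mb, 15.1 Mb were in neither moved line. On the other 17 autosomes it was 0.636 of 189 Mb, and on all autosomes 15.7 of 207 Mb. Bins in all 2i/LIF and XS lists made up 4.42% of chromosome 6 and 8.93% of chromosome 8, compared with 8.56% of all autosomal bins. On chromosome 6 the longest of 90 such stretches ran from 88669101 to 89100700 (432 kb) and the second from 113803301 to 114119200 (316 kb). Line 34 kept a domain over part of the first (88675601 to 88940800, 265 kb) and over all of the second. On chromosome 8 the longest of 102 ran from 123253001 to 124134400 (881 kb) and held 2 of the domains of line 37. The second ran from 122671901 to 123103500 (432 kb) and lay wholly in the longest domain of line 34. The third stretches, of 176 kb on chromosome 6 and 416 kb on chromosome 8, held none, nor did the fourth, of 161 and 394 kb. Such stretches were chosen after their values were seen.

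The distal block of chromosome 8 was the place of the longest domains in 2i/LIF and XS line 30. The longest domain on chromosome 8 ran from 119255501 to 125437000 (6.18 Mb) in 2i/LIF line 34, from 120152501 to 124477600 (4.33 Mb) in line 35, from 120170701 to 122405400 (2.23 Mb) in line 37 and from 121733301 to 125431800 (3.70 Mb) in XS line 30. After the move line 34 covered 7.11% and line 37 5.19% of the first of these. In XS lines 31 and 32 the longest domains lay elsewhere, from 5192201 to 11464700 (6.27 Mb) and from 102260601 to 105188200 (2.93 Mb). The latter was not touched by 2i/LIF lines 34 or 37, and 2i/LIF line 35 covered 59.9% of it.

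On chromosome 6 the cultures had their longest domains in different places. In 2i/LIF lines 34 and 37 they nearly coincided, from 134739801 to 136468800 (1.73 Mb) and from 134858101 to 136458400 (1.60 Mb), and in line 35 the longest ran from 142361701 to 145160600 (2.80 Mb). All 3 were free of domains after the move in both lines. In XS lines 30, 31 and 32 the longest ran from 79016601 to 81179800 (2.16 Mb), from 73049601 to 82264000 (9.21 Mb) and from 73695701 to 75566400 (1.87 Mb). XS lines 30 and 32 had theirs wholly inside that of XS line 31. 2i/LIF lines 34 and 37 covered 0% of those of XS lines 30 and 32, and 8.69% and 7.69% of that of XS line 31, whereas 2i/LIF line 35 covered 74.6%, 69.0% and 79.5% of the 3.

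Within 2i/LIF, line 37 covered less of these chromosomes, mostly in places that the other 2i/LIF lists also covered. Of its length on chromosomes 6 and 8, 88.2% lay in the list of line 34 and 98.9% in that of line 35. Elsewhere the shares were 68.1% and 97.6%. Line 37 covered 76.4% of the length of line 34 on chromosomes 6 and 8, compared with 91.8% elsewhere. In windows of 10 Mb, line 37 was more covered than line 34 in 184 of 204 on the other 17 autosomes, with a median difference of 11.6 percentage points. On chromosome 6 this was so in 4 of 14 windows (median -2.91 points) and on chromosome 8 in 3 of 12 (median -4.21 points). Line 37 had 1.10 domains per Mb on chromosome 6 and 0.997 on chromosome 8, ranks 18 and 19 of 19 autosomes, compared with 1.34 elsewhere. In line 34 the values were 1.00 (rank 12), 0.903 (rank 19) and 1.09, so chromosome 8 had the lowest density of all autosomes in both lists. The median domain length in line 37 was 173 kb on chromosome 6 (rank 18), 219 kb on chromosome 8 (rank 12) and 226 kb elsewhere, while in line 34 it was 208 kb, 241 kb and 188 kb. Within line 37, domains were thus fewer per Mb on both chromosomes than elsewhere, and those on chromosome 6 were shorter than on most autosomes. Per Mb, line 37 still had more domains on both chromosomes than line 34. Score per bin on chromosomes 6 and 8 together was 0.793 in line 37, against 0.796 elsewhere. In line 34 the values were 0.878 and 0.881.

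The share of 2i/LIF covered length in the distal 50% differed between the narrower lists and the widest one. Line 35, the widest, covered 77.1% of chromosome 6 and 75.2% of chromosome 8. Such wide coverage limits how far a share can move from 50%, and the part of list width in the difference was not tested. Of the covered length, 64.0% on chromosome 6 and 67.6% on chromosome 8 lay in the distal 50% of the span in line 34, and 64.4% and 65.9% in line 37. In line 35 these shares were 51.1% and 50.7%. On the other 17 autosomes the distal 50% of the spans held 58.1%, 51.4% and 54.5% in lines 34, 35 and 37. Chromosome 8 had a thinly covered second section of 25%, with 12.9% in line 34 and 13.8% in line 37, next to 41.8% and 38.1% in the third. Its longest free stretch was there in both lists, from 49344101 to 59790900 (10.4 Mb) in line 34 and from 50596001 to 59729800 (9.13 Mb) in line 37. On chromosome 6 the longest free stretch was proximal, from 6293301 to 21931000 (15.6 Mb) in line 34 and from 7985901 to 17253600 (9.27 Mb) in line 37.

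In the XS lists, which played no part in the choice of the chromosomes, neither chromosome was nearly free of domains, but chromosome 8 stood low in XS line 30. In XS line 30, 140 domains covered 36.5% of chromosome 6 and 119 covered 25.1% of chromosome 8, compared with 37.01% elsewhere. In XS line 31, 126 and 125 domains covered 73.3% and 70.1%, compared with 72.9%. In XS line 32, 277 and 257 domains covered 27.2% and 35.5%, compared with 30.4%. The order of the 2 chromosomes turned between lines: chromosome 8 ranked 18, 17 and 6 from the highest of 19 in XS lines 30, 31 and 32, and chromosome 6 ranked 10, 9 and 15. Median domain lengths in XS lines 30, 31 and 32 were 246, 384 and 80.6 kb on chromosome 6 and 173, 317 and 79.3 kb on chromosome 8, next to 204, 401 and 78.0 kb elsewhere.

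The XS and 2i/LIF lists overlapped in each of 5 measures of chromosomes 6 and 8. The values are descriptions. Coverage relative to the other 17 autosomes was 0.950 ± 0.0947 (SD, n = 3) in XS and 0.851 ± 0.201 (SD, n = 3) in 2i/LIF, with a difference of 0.0985. The XS lists were at 0.842, 0.985 and 1.02, and without 2i/LIF line 37 the difference turned to -0.0177. Domains per Mb relative to the other 17 were 0.986 ± 0.0959 and 0.915 ± 0.152 (SD, n = 3 each), a difference of 0.0709. Relative median length was 0.960 ± 0.0684 and 0.960 ± 0.187. Relative score per bin was 0.985 ± 0.00729 and 0.993 ± 0.00682, and lay below 1 in all 6 lists. Chromosome 8 alone scored above the other 17 autosomes in 2i/LIF lines 34 and 37 and XS lines 30 and 32. It was below them in 2i/LIF line 35 and XS line 31, whereas chromosome 6 alone was below them in all 6 lists. The share of covered length in the distal 50% of the spans was 55.3% ± 6.62 and 60.6% ± 8.41, or -5.33 points in XS against 2i/LIF. 2i/LIF line 37 was the lowest of the 6 lists in relative coverage, domains per Mb and median length.

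**Figure D5:**
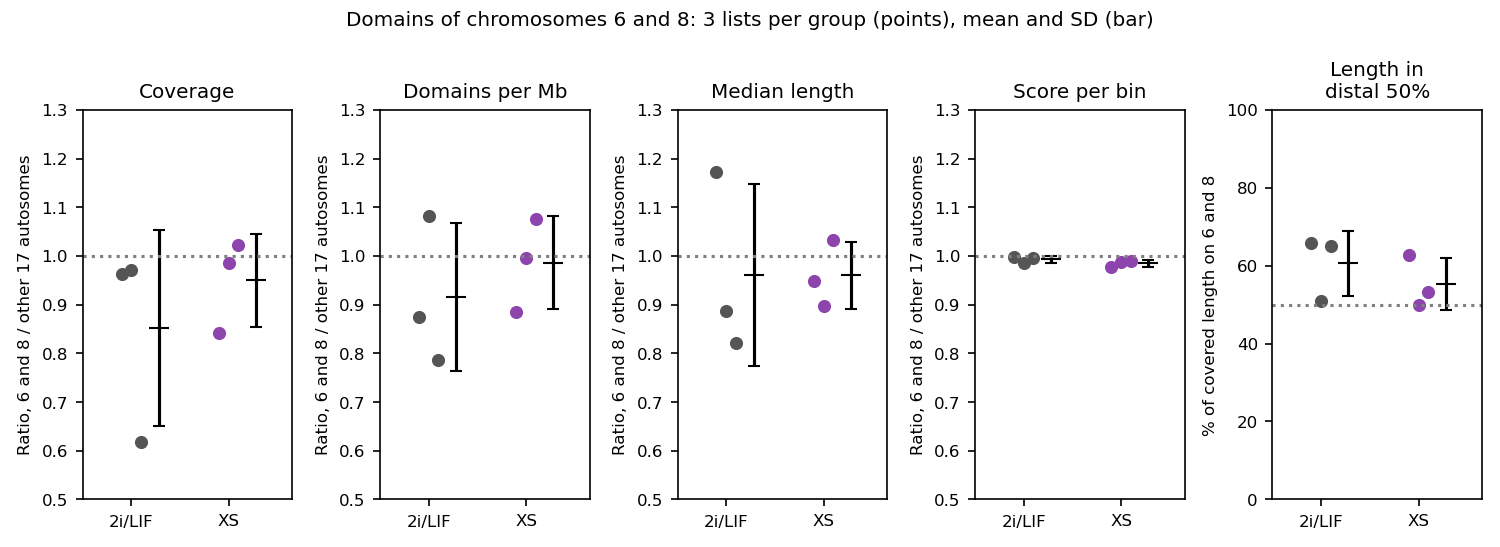
For each of the 3 2i/LIF and 3 XS lists (points), the value on chromosomes 6 and 8 divided by that on the other 17 autosomes (4 left panels, vertical axis cut at 0.5) and the percent of covered length in the distal 50% of the spans (right panel), with mean and SD as bars. The groups overlap in all 5 panels, and the lowest point for coverage is 2i/LIF line 37 at 0.619.

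Few bins on these chromosomes were in all lists of one group and in no list of the other. The widest lists limit such bins, as 2i/LIF line 35 and XS line 31 covered 76.2% and 71.8% of both chromosomes. Single lists could differ more. Of the length of 2i/LIF line 34 here, XS lines 30, 31 and 32 covered 56.5%, 80.8% and 25.5%. Elsewhere they covered 62.5%, 84.9% and 27.9%. Bins in all 2i/LIF and no XS list made up 2.36% of chromosome 6 and 3.10% of chromosome 8, near the 2.94% of all autosomal bins. The longest such stretches ran on chromosome 8 from 130192401 to 130530400 (338 kb), close to its distal end, and on chromosome 6 from 4596801 to 4854200 (257 kb), close to its proximal end. Bins in all XS and no 2i/LIF list made up 1.70% and 1.21%, near the 1.31% of all autosomal bins. Here the longest ran on chromosome 8 from 117513501 to 117891800 (378 kb) and on chromosome 6 from 62618401 to 62836800 (218 kb). All XS lists together covered 24.9 Mb of chromosome 6 and 19.4 Mb of chromosome 8, or 17.04% and 15.1%, compared with 19.8% of all autosomal bins.

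A whole autosome nearly free of domains occurred once more in the wide lists, on chromosome 13 of XS line 32, with 3 domains over 0.0821% of its span. Chromosome 13 was covered over 48.0% and 48.9% in lines 34 and 37 after the move, and chromosomes 6 and 8 over 27.2% and 35.5% in XS line 32. The near absence of domains thus concerned different chromosomes in the moved cells and in that XS line.

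The S lists held few domains on chromosomes 6 and 8, with 26 and 130 on all autosomes in lines 35 and 37. Each domain also carries a number whose meaning the authors' lists do not define, and it exceeded 0 in 100% of the domains of both S lists and in 0.0455% to 16.8% of those of the 8 wide lists, and whether S domains are of the same kind is not known. S line 35 had 0 on chromosome 6 and 4 on chromosome 8, the longest from 72059001 to 72107100 (48.1 kb). S line 37 had 8 on each, the longest from 58481801 to 58630000 (148 kb) on chromosome 6 and from 73563101 to 73707400 (144 kb) on chromosome 8. Of the 4 domains of S line 35, 3 were touched by S line 37 and 2 had identical ends in both. None of the 20 S domains here touched a domain left after the move, and such domains cover only 2.87% of these chromosomes in line 34 and 0.150% in line 37. On all autosomes 26.9% of the domains of S line 35 and 33.1% of those of S line 37 touched one. The 4 of S line 35 touched no wide list, compared with 42.3% of all 26 that touched at least 1. Of the 16 of S line 37, 9 touched a wide list, compared with 58.5% of all 130.

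On chromosome 8, the longest stretch that no list covers ran from 19984901 to 22180600 (2.20 Mb, mm9), and the next from 56197701 to 57909800 (1.71 Mb). The base before the first of these was the end of a domain of both S lists, from 19982301 to 19984900 (2.6 kb), whose ends were identical in S lines 35 and 37. A second S domain with identical ends stood nearby, from 19939401 to 19944600 (5.2 kb). No wide list touched either. On chromosome 6 the longest stretches in no list were shorter, from 130504401 to 131067300 (563 kb) and from 33208501 to 33757100 (549 kb). Absence from both moved lists, by which the chromosomes were chosen, is part of what defines these stretches.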

How the data were processed

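Reads from native ChIP-seq of H2A.X were, per the submitters' processing notes, aligned by the authors with Bowtie2 version 2.0.6 to mm9. Which domain caller, settings and control they used is not stated in what was used here. Every deposited list gives a position, a value of undefined meaning and a score per domain, neither with a stated scale. The deposited score never exceeded the number of 1300 bp bins in a domain, and was used per bin and within a list. The lists name domains as decreased while a state inside them reads enriched, and the direction was taken from the names. Depth is unknown. Coordinates are 1-based.

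Samples were grouped by culture and, within Serum/LIF, by XS or S in their titles. The series has 15 samples, of which 1 H2A.X sample (S line 34), 3 inputs and the IgG control have no list analysed here. Lists were turned into covered and uncovered bins over each chromosome's span, from its first to its last bin in a domain of any list. Touching means at least 1 shared bin. The other 17 autosomes were pooled. Chromosomes, measures, tests and named stretches were chosen with earlier results of these data known. The named stretches were the 3 longest per chromosome covered in all 2i/LIF and XS lists and lacking in both moved lines, the longest domains and free stretches of each list, and all domains of line 37 after the move. Exact permutation tests of XS against 2i/LIF were planned and run, but no p is given because the 2i/LIF lists took part in the choice of chromosomes. Functions were tested on simulated lists. Alternatives were other filters on length and score, joining of near domains, other comparison autosomes, each chromosome alone, a log2 scale, leaving out each list and the line as a block. Python 3.11.15, numpy 2.4.6 and pandas 2.3.3 were used.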

Additional observations from a re-analysis of the deposited data

How the results depend on the processing

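The fall of relative coverage after the move, -0.819, kept its sign under all 13 alternatives. It ran from -0.935 without 2i/LIF line 37 to -0.759 without 2i/LIF line 35. All values lay within 0.201 of -0.819, which is 1 SD of the 2i/LIF lists, a wide limit. The chromosomes were chosen by this contrast, so its stable sign carries no support. A replicate block by line, which uses lines 34 and 37, gave -0.759. No paired analysis was possible because 2i/LIF and XS share no line for the XS comparisons. The share of length kept on chromosomes 6 and 8 was 0.518% without line 34 and 7.43% without line 37. Of the XS comparisons, domains per Mb and the distal share kept their direction under every alternative run, but the size for domains per Mb was not stable. Its difference, 0.0709, ran from 0.00679 without 2i/LIF line 37 to 0.155 without 2i/LIF line 35. For chromosome 6 alone it was 0.00682. Relative coverage turned once, with a range of -0.0177 to 0.159 when each list was left out. Relative median length, -0.000169, had no stable sign: it ran from -0.0694 to 0.106 when each list was left out, and was 0.0187 against the mean over the 17 chromosomes, 0.131 for chromosome 6 alone and 0.0146 as a log2 ratio. Relative score per bin, -0.00785, was 0.00735 for chromosome 8 alone. Omitting both widest lists, a setting chosen after seeing the data, turned none of the 5. Depth is unknown, so whether a missing domain reflects fewer reads could not be assessed.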
